A study of Mus musculus with 24 samples.

Results

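Translation initiation factors (eIF) and elongation factors (eEF), with the kinases, methyltransferases and binding proteins that carry their names, were followed in mouse calf muscle at 3 and 14 days after the motor nerve was cut, with and without the ubiquitin ligase MuRF1. The members were the annotated genes whose symbol starts with Eif or Eef, leaving out Eif4ebp1, and that had at least 1 probe read above background, at a detection p-value under 0.05, on 3 or more of the 24 arrays. Of 63 such genes on the array 57 qualified, out of 11317 genes that passed the same filter, and 55 of the 57 were read above background on every array by the probe used. The exceptions were Eif2ak3, detected on 21 arrays, and Eif3m, detected on 23. The 6 genes without a qualifying probe were Eef1akmt2, Eif2ak4, Eif5a2, Eif4e1b, Eif2s3y and Eif2s3x-ps1, and Eif1, Eif2s1, Eif4g1 and Eif3g were not analysed here.

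The tissue was triceps surae, the calf muscle group, of mice labelled C57/Bl6 and 6 months old. Wild type mice and mice labelled MuRF1 knockout had the sciatic nerve resected on 1 side, and denervated muscle was taken after 3 or 14 days. The controls of each genotype and day were littermates housed in parallel that had no surgery, so the operation itself is part of every denervated-minus-control difference. With 3 samples in each of 8 groups, total RNA of 24 samples was hybridised to Illumina 1-colour bead arrays. Nothing in the labels says that samples of 1 group are different animals, and the p-values then cover just the variation among the samples at hand; how the knockout was made is not given in the sources used here.

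Initiation starts when eIF2 brings the initiator tRNA to the small ribosomal subunit, held ready by eIF1A and the large eIF3 complex. eIF4E binds the mRNA cap, eIF4G scaffolds the assembly and the helicase eIF4A opens the leader. eIF2B recycles eIF2 and is blocked when stress kinases phosphorylate eIF2. eIF5B joins the ribosomal subunits, eIF6 keeps them apart, and the eEF1 and eEF2 factors then drive elongation. In muscle this machinery sets how much protein is made per mRNA, and eEF1A exists as a widely expressed form, Eef1a1, and a form of adult muscle and neurons, Eef1a2.

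Values are log2 intensities of the brightest probe of each gene after background correction and quantile normalization between arrays; probes differ in affinity, so levels are compared only within a gene. A gene is called higher or lower where limma's moderated test, adjusted over all 11317 genes, gives an adjusted p under 0.05. In bulk muscle, fewer cells of a type and less RNA per cell cannot be told apart.

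The start regions of 7 genes whose transcripts the results turn on are printed first, so that their letters can be read beside the values. They come from RefSeq windows on GRCm38.p6, each running from 250 bases before to 50 bases after a transcript start on the gene's own strand. Of the 57 members, 45 had at least 1 window. Capitals mark matches, on either strand, to CACGTG, the E-box core, or to CCGGAAG, a core of ETS factor sites; other letters are lower case.
Eef1a1: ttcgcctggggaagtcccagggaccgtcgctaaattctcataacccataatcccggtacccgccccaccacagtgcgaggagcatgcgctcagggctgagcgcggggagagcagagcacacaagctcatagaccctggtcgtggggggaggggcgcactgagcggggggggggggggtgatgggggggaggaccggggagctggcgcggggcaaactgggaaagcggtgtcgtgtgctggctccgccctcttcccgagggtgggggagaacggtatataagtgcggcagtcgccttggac
Eef1a2: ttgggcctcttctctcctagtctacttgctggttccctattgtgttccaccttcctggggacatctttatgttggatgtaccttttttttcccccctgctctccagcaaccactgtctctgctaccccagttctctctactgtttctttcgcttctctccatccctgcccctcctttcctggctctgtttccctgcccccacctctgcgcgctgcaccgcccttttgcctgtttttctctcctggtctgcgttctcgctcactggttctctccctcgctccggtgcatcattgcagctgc
Eif4a1: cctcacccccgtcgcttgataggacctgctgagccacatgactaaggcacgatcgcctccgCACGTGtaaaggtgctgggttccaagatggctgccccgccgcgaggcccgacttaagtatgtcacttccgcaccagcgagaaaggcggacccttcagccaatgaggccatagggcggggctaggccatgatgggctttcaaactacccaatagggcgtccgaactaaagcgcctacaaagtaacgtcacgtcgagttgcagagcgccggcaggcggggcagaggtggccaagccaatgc
Eif4e2: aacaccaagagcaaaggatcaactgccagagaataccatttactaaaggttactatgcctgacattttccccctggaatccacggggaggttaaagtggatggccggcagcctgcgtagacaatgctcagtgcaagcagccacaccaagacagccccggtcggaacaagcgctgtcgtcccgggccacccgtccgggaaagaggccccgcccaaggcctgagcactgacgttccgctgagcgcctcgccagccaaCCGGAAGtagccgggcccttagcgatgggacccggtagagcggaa
Eif2b4: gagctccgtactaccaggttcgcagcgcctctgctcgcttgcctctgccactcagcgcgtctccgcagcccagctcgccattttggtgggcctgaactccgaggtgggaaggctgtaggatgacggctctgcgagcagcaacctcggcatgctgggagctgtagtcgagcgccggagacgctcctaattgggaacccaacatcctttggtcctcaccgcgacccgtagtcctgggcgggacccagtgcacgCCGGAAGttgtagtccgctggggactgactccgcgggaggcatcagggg
Eif4e: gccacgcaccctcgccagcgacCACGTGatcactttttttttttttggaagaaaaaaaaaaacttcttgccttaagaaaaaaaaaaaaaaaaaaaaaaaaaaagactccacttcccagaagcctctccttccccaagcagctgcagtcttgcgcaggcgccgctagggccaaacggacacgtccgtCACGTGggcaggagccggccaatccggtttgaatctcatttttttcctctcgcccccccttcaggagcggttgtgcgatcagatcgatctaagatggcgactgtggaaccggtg
Eif1ax: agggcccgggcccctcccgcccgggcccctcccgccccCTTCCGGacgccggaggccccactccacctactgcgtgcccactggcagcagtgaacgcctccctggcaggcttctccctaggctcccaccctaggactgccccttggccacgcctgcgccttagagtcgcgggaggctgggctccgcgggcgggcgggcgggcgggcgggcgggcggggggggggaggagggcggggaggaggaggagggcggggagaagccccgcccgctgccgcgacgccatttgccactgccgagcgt

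Eef1a1 (chr9:78481675-78481974, minus strand) and Eef1a2 (chr2:181156966-181157265, minus strand) held neither motif in these windows. Eif4a1 (chr11:69672374-69672673, minus strand) held 1 E-box, and the window of Eif4e at chr3:138527018-138527317 (plus strand), 1 of its 2 windows, held 2. The ETS core stood in the windows of Eif4e2 (chr1:87213661-87213960, plus strand), Eif2b4 (chr5:31193090-31193389, minus strand) and, on the opposite strand, Eif1ax (chrX:159371928-159372227, plus strand).

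Over the members, 11 of 45 (24.4%) had an E-box in a window, against 11.4% of the 9145 tested genes with a window and 8.09% of all 27025 genes with one. The ETS core stood in 15 of 45 members (33.3%), against 17.8% and 9.93%. Of the other motifs searched, TATAAA stood in 6.67% of the members against 10.8% of tested genes, TGACGTCA in 2.22% against 3.19% and TGATGNAA in 4.44% against 2.95%. A match is a string of letters and not a shown binding site, a missing match says only that these letters are not in this window, and genes with several windows had more chances to match.

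Before the members are described, the libraries were checked. The probes read above background numbered 15532 to 17055 on 10 of the 12 day 3 arrays but 18434 and 18520 on the second and the third sample of denervated knockout muscle at day 3, which stand apart from their group. The day 14 arrays had 16875 to 18755. For denervated knockout muscle at day 3, the counts and part of the single values are therefore also given without those 2 arrays. Where just 1 value is given, it rests on all arrays and need not stay the same without them. The fit without them rests on 1 denervated knockout sample of day 3, which is assumed to vary like the other groups, so a call kept or lost there describes that sample and carries little weight. The 3 knockout day 3 controls correlated least within a group (r from 0.974 to 0.984, against 0.980 to 0.993 in the other groups), and the third of them had 16718 detected probes against 15532 and 15724. Trim63, which encodes MuRF1, read 9.05 to 11.37 in the 12 wild type samples and 4.83 to 5.86 in the 12 knockout samples. It was at background on the 6 knockout arrays of day 3 and weakly detected on the 6 of day 14. All 12 listed muscle fibre markers were measured. Their mean log2 intensity was 14.71 to 14.87 in wild type day 3 controls and 14.50 to 14.56 after denervation, and 14.65 to 15 in the other 6 groups. They moved in both directions, with 1, 0, 2 and 2 called higher and 3, 0, 2 and 4 lower in wild type and knockout day 3 and wild type and knockout day 14. Markers of other cells moved with denervation, and the shares of all genes called are given in the next paragraph. Of 14 measured macrophage and leukocyte genes, 13 were called higher in wild type and 3 in knockout muscle at day 3, and 4 and 11 at day 14. Their mean log2 level ran from 8.51 to 8.67 in wild type day 3 controls and from 9.65 to 10.31 in the denervated samples. Of 8 genes of dividing cells, 7, 4, 1 and 0 were called higher in wild type and knockout at day 3 and wild type and knockout at day 14. Of 12 endothelial genes 8, 1, 8 and 8 were called lower, while Tek in knockout day 3 (0.49) and Cldn5 in knockout day 14 (0.59) were called higher. Of 6 measured Schwann cell genes the myelin genes Mbp, Pmp22 and Mag were called lower in all 4 (Mbp by -2.22 to -2.53), while 2, 1, 0 and 2 were called higher. Of 11 fibroblast genes 2, 2, 0 and 0 were called higher and 2, 2, 3 and 2 lower, Gsn the furthest (-1.28 to -3.58). The part of these cells in the members' changes was not tested.

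Denervation changed many of the 57 factors, and more rose than fell. In wild type muscle at day 3, 28 were called, 20 higher and 8 lower (49.1%), where 37.5% of all genes tested were called, 20% higher and 17.5% lower. In knockout muscle at day 3, 24 were called, 18 higher and 6 lower (42.1%); of all genes 35.8% were called, 20.2% higher and 15.6% lower. In wild type muscle at day 14, 34 were called, 23 higher and 11 lower (59.6%), and of all genes 41.5%, 22.9% higher and 18.6% lower. In knockout muscle at day 14, 32 were called, 21 higher and 11 lower (56.1%), and of all genes 36.7%, 19% higher and 17.7% lower. The median log2 change of the members was 0.23, 0.20, 0.19 and 0.05 in the same order, against 0.01, 0.04, 0.045 and 0.03 over all genes. Without the 2 arrays that stood apart, with 1 denervated sample left, 17 of the 24 day 3 knockout calls remained, 13 higher and 4 lower, and all 24 kept their sign. With the number of detected probes as a covariate, 14 of the 24 ended and 2 others appeared.

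**Figure D1:**
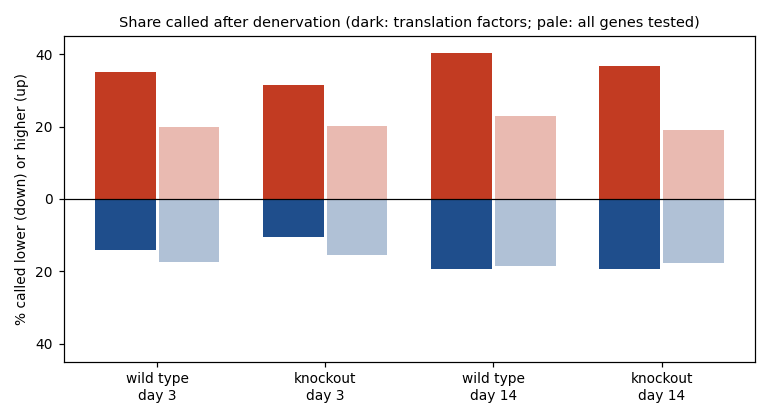
Percent of the translation factors (dark bars, 57 genes) and of all genes tested (pale bars, 11317 genes) called higher (up, red) or lower (down, blue) after denervation in each genotype and day. The share of factors called higher was 35.1% and 40.4% in wild type and 31.6% and 36.8% in knockout at days 3 and 14, above the pale bar in each. Under median centring the counts of factors and of all genes called change as given in the text.

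The split between higher and lower depended on how arrays were scaled. When each array was centred on its median in place of quantile normalization, the median change of all genes moved to 0.19 in wild type day 3, 0.45 in knockout day 3 and 0.12 in wild type day 14. The members' splits became 29 higher and 3 lower, 41 and 0, 22 and 8, and, in knockout day 14, 16 and 10. Of all 11317 genes, 3160 were then called higher and 968 lower in wild type day 3, and 5356 and 539 in knockout day 3. At day 14 these were 2903 and 1687 in wild type and 1776 and 2074 in knockout. The sign of called members turned only for Eif1ax (from -0.49 to 0.13) and Eif3h (from -0.46 to 0.20), both in knockout day 3.

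The 4 denervation comparisons share no samples, and 11 members were called higher in all 4 of them. They were the helicase Eif4a1, the cap-binding homologue Eif4e2, Eif6, Eef1a1, the eEF1 complex subunit Eef1g, the scanning factor Eif1a, Eif2b2, Eif2b3 and Eif2b4 of the exchange factor, and Eif3d and Eif3l of eIF3. Over all genes tested, 6.76% were called higher in all 4. Another 3 members were called lower in all 4, the cap-binding protein Eif4e, the scanning factor Eif1ax and the eEF2 kinase Eef2k, against 5.81% of all genes. With the number of detected probes as a covariate, 5 of the 11 were still called higher in all 4, the others (Eef1a1, Eef1g, Eif1a, Eif2b3, Eif3d and Eif3l) losing the knockout day 3 call. The 3 called lower kept their calls. With any 1 array left out, 12 of the 14 stayed in their set, while Eif2b2 left it in 18 of 24 fits and Eif1ax in 3. Under median centring 9 of the 11 and 0 of the 3 kept their calls. Of the 11, Eef1g (0.29) and Eif3l (0.42) lost the knockout day 14 call. Of the 3, Eif4e (-0.36), Eef2k (-0.06) and Eif1ax were no longer called lower in knockout day 3. A further 10 members passed in none of the 4, and 2, Eef1e1 and Eif2d, were called in opposite directions at the 2 days. Under median centring neither of these was called in both directions.

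**Figure D2:**
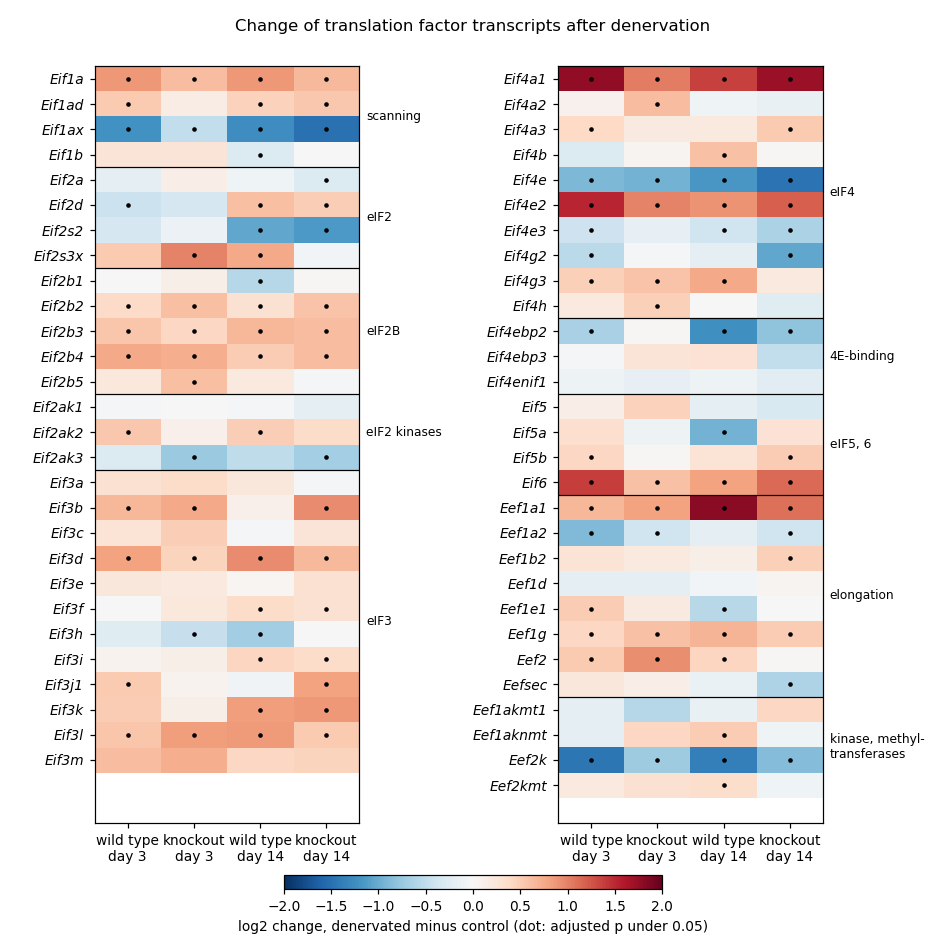
Log2 change (denervated minus control, colour) of the 57 members in each genotype and day, grouped by role, with a dot where the adjusted p was under 0.05. Eif4a1, Eif4e2 and Eif6 are red and Eif4e blue in all 4 columns, and Eif1ax, also blue in all 4, turns to 0.13 in knockout day 3 under median centring.

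The cap-binding complex held large rises and large falls. Eif4a1, the RNA helicase of the cap complex, read 9.78, 9.57 and 9.68 in wild type day 3 controls and 11.44, 11.38 and 11.52 after denervation, and at day 14 it read 9.65, 9.54 and 9.56 in controls and 11.01, 10.74 and 11.09 after denervation. In knockout muscle Eif4a1 read 9.66, 9.55 and 9.83 in day 3 controls against 10.91, 10.41 and 10.80, and 9.13, 8.88 and 9.17 in day 14 controls against 10.67, 10.89 and 10.82. Every denervated sample lay above every control sample of any group. The rises were 1.77 ± 0.14 (SE) on the log2 scale in wild type day 3 (3.41-fold, adjusted p = 1.56e-09), and 1.02 ± 0.14 in knockout day 3 (adjusted p = 5.03e-06). At day 14 they were 1.36 ± 0.14 in wild type day 14 (adjusted p = 6.15e-08) and 1.73 ± 0.14 in knockout (3.33-fold, adjusted p = 2.31e-09). Its paralogue Eif4a2 was called in 1 comparison, higher by 0.61 ± 0.21 in knockout day 3 (0.40 and not called without the 2 arrays, -0.06 with the covariate, and ended without the first or second control or the third denervated sample). Eif4a3, the helicase of the exon junction complex, was called higher in wild type day 3 (0.40 ± 0.13) and knockout day 14 (0.52 ± 0.13), the former until the second control or the first or the third denervated sample was left out.

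Eif4e, the cap-binding protein that recruits the ribosome, moved the other way. It read 7.89, 7.96 and 8.01 in wild type day 3 controls and 7.15, 7.02 and 6.99 after denervation, and 7.66, 7.64 and 7.99 against 7.23, 6.19 and 6.38 at day 14. In knockout muscle Eif4e read 7.88, 7.39 and 7.35 against 6.21, 6.58 and 6.97 at day 3, and 7.93, 8.29 and 7.93 against 6.31, 6.58 and 6.82 at day 14. The 2 groups of each comparison did not overlap. The changes on the log2 scale were -0.90 ± 0.23 (adjusted p = 0.00346) in wild type and -0.95 ± 0.23 (adjusted p = 0.00245) in knockout at day 3. At day 14 they were -1.16 ± 0.23 (adjusted p = 0.000296) and -1.48 ± 0.23 (adjusted p = 2.9e-05). With median centring the day 3 values were -0.59 and -0.36 and no longer called.

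Eif4e2, a cap-binding homologue that does not bind eIF4G well and is known as a translational repressor, rose where Eif4e fell. It read 11.35, 11.30 and 11.49 in wild type day 3 controls against 12.83, 12.88 and 13.01 after denervation, and 11.17, 11.14 and 11.10 against 12.05, 11.88 and 12.17 at day 14. In knockout muscle the values were 11.43, 11.52 and 11.20 against 12.60, 12.18 and 12.33 at day 3, and 10.71, 10.66 and 10.76 against 11.70, 12.12 and 11.92 at day 14. Every denervated sample lay above every control sample. The rises were 1.52 ± 0.13, 0.99 ± 0.13, 0.90 ± 0.13 and 1.20 ± 0.13 in the order wild type day 3, knockout day 3, wild type day 14 and knockout day 14, with adjusted p of 8.05e-09, 4.76e-06, 1.01e-05 and 2.76e-07. Its second probe was also called higher in all 4. By the probe used, another homologue, Eif4e3, was called lower in wild type at day 3 (-0.41 ± 0.14) and day 14 (-0.40 ± 0.14). In knockout it was called lower at day 14 (-0.63 ± 0.14) and read -0.17 ± 0.14 at day 3. Its dimmer probe, also detected on all 24 arrays, gave -0.15, -0.91, -0.56 and 0.20 in the order used for Eif4e2. Of these only -0.91 and -0.56 were called. Under median centring both wild type calls of Eif4e3 ended (-0.14 and -0.25), and that of knockout day 14 stayed (-0.77).

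Among the scaffolds, Eif4g3 was called higher in wild type day 3 (0.47 ± 0.16), knockout day 3 (0.57 ± 0.16) and wild type day 14 (0.76 ± 0.16), the knockout value being 0.10 and not called without the 2 arrays. Eif4g2, a scaffold that lacks the cap-binding protein's site, was called lower in wild type day 3 (-0.54 ± 0.17) and in knockout day 14 (-1.04 ± 0.17). The wild type call ended when the first control, the second denervated or the third denervated sample was left out (-0.47 to -0.51, adjusted p 0.0535 to 0.0745). The dimmest probe of Eif4g2 was called higher in wild type day 3 (0.79) and in knockout day 3 (1.40). Over the 10 measured cap-binding, scaffold and helicase factors, 4, 5, 4 and 3 were called higher and 3, 1, 2 and 3 lower in wild type and knockout day 3 and wild type and knockout day 14. Of all genes tested, 20%, 20.2%, 22.9% and 19% were called higher and 17.5%, 15.6%, 18.6% and 17.7% lower.

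Eif4ebp2, which binds eIF4E and blocks it, read 10.27, 10.33 and 10.31 in wild type day 3 controls against 9.96, 9.59 and 9.42, and 11.64, 11.49 and 11.30 in day 14 controls against 10.08, 10.37 and 10.31. In knockout muscle it read 10.25, 9.98 and 10.60 against 9.92, 10.42 and 10.56 at day 3, and 11.49, 11.45 and 11.24 against 10.77, 10.38 and 10.59 at day 14. The groups were apart in wild type at both days and in knockout at day 14 and overlapped in knockout at day 3. It was called lower by -0.65 ± 0.18 (adjusted p = 0.00709), -1.22 ± 0.18 (adjusted p = 1.29e-05) and -0.81 ± 0.18 (adjusted p = 0.00118) in those 3 comparisons and changed by 0.02 ± 0.18 in knockout day 3. Under median centring the wild type day 3 value was -0.36 and not called. Eif4ebp3 and the eIF4E transporter Eif4enif1 were called in none of the 4, with changes from -0.50 to 0.29.

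**Figure D3:**
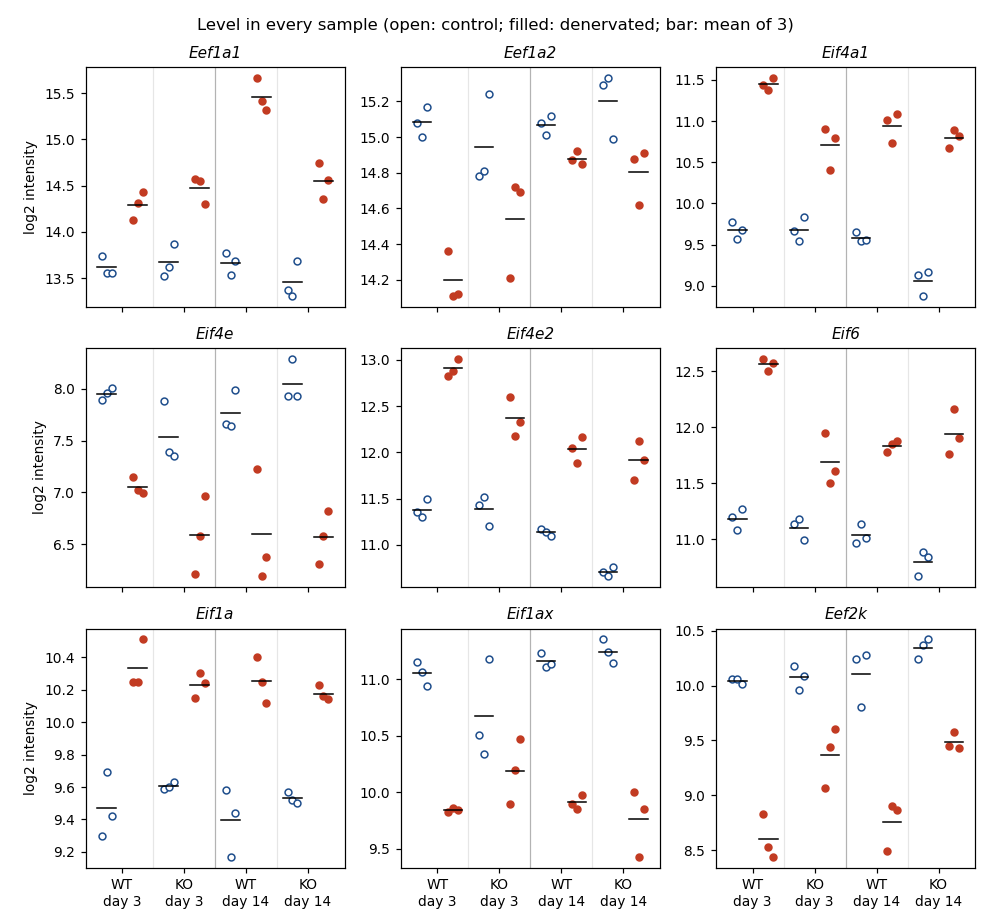
Log2 intensity of 9 members in each of the 24 samples (open circles, control; filled circles, denervated; bar, mean of 3), with its own axis for each gene. Filled circles lie above every open circle of the same genotype and day for Eef1a1, Eif4a1, Eif4e2, Eif6 and Eif1a and below them for Eif4e and Eef2k; Eif1ax overlaps in knockout day 3, where its change turns to 0.13 under median centring.

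The scanning factors split within the family. Eif1a, which keeps the scanning ribosome open, read 9.30, 9.69 and 9.42 in wild type day 3 controls against 10.25, 10.25 and 10.51 after denervation. Its rise was 0.87 ± 0.12 (adjusted p = 1.09e-05) there, 0.62 ± 0.12 in knockout day 3, 0.86 ± 0.12 in wild type day 14 and 0.65 ± 0.12 in knockout day 14, and all 4 were called. Eif1ax, the X-linked gene for a nearly identical protein, read 11.15, 11.06 and 10.94 in wild type day 3 controls against 9.83, 9.86 and 9.84, and 11.23, 11.11 and 11.13 against 9.90, 9.85 and 9.98 at day 14. In knockout muscle Eif1ax read 10.51, 10.34 and 11.18 against 9.90, 10.20 and 10.47 at day 3, where 1 denervated sample lay above a control, and 11.35, 11.24 and 11.14 against 10, 9.43 and 9.85 at day 14. The falls of Eif1ax were -1.21 ± 0.18 (adjusted p = 1.77e-05), -1.24 ± 0.18 (adjusted p = 1.06e-05) and -1.49 ± 0.18 (adjusted p = 1.4e-06) in wild type day 3, wild type day 14 and knockout day 14. In knockout day 3 it was -0.49 ± 0.18 (adjusted p = 0.0397), a call that ended without the third control (-0.23), the first denervated (-0.34) or the second denervated sample (-0.49, adjusted p = 0.0817). The array was not shown to separate reads of such similar transcripts, so cross-hybridization between Eif1a and Eif1ax was not tested. Eif1ad was called higher in 3 comparisons (0.53 ± 0.16, 0.46 ± 0.16 and 0.54 ± 0.16, the exception being knockout day 3), and its second probe was called lower in wild type day 14. Eif1b was called once, lower by -0.28 ± 0.11 in wild type day 14.

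Of the eIF2 complex, which carries the initiator tRNA, 2 subunits moved in opposite directions at day 14. Eif2s2, the beta subunit, read 12.02, 11.75 and 11.86 in wild type day 14 controls against 10.77, 10.84 and 10.90, and in knockout 11.90, 12.11 and 11.87 against 11.02, 10.71 and 10.71. The groups were apart in both, with falls of -1.04 ± 0.15 (adjusted p = 1.26e-05) and -1.15 ± 0.15 (adjusted p = 4.73e-06), and its second probe was called lower in both as well. At day 3 the changes of Eif2s2 were -0.33 ± 0.15 and -0.12 ± 0.15, neither called. Eif2s3x, the gamma subunit, read 9.85, 9.63 and 10.11 in knockout day 3 controls against 10.39, 10.76 and 11.41 after denervation, and 10.39, 10.12 and 10.45 in wild type day 14 controls against 11.45, 11.03 and 10.74. These groups did not overlap, and the rises were 0.99 ± 0.21 (adjusted p = 0.000938) and 0.76 ± 0.21 (adjusted p = 0.00644). The first became 0.53 and was not called without the 2 arrays that stood apart, and the second became 0.57 (adjusted p = 0.0517) without the first denervated sample. In the remaining comparisons Eif2s3x read 9.94, 10.17 and 9.88 against 10.70, 10.49 and 10.40 in wild type day 3 (0.53 ± 0.21, adjusted p = 0.0534) and 10.57, 10.63 and 10.60 against 10.71, 10.26 and 10.66 in knockout day 14 (-0.06 ± 0.21).

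Eif2d, an alternative initiator tRNA carrier that also helps to recycle ribosomes, changed in opposite directions at the 2 days under quantile normalization. It read 7.83, 8.12 and 8.03 in wild type day 3 controls against 7.67, 7.54 and 7.48, and 8.26, 7.84 and 7.98 in day 14 controls against 8.52, 8.71 and 8.65. In knockout muscle it read 8.18, 7.86 and 7.97 against 7.47, 7.53 and 8.01 at day 3, where the groups overlapped, and 7.95, 8.14 and 7.85 against 8.27, 8.50 and 8.65 at day 14. It was called lower in wild type day 3 (-0.43 ± 0.15, adjusted p = 0.0314) and higher in wild type day 14 (0.60 ± 0.15, adjusted p = 0.00321) and knockout day 14 (0.49 ± 0.15, adjusted p = 0.0155). The day 3 call ended when either the second or the third control or denervated sample was left out (-0.37 to -0.42). The knockout day 14 call ended without the third control (0.43) or the third denervated sample (0.40), and the mean of both its probes there was -0.06. Under median centring Eif2d was not called in wild type day 3 (-0.13) or knockout day 14 (0.42). The wild type day 14 call stayed (0.75), and knockout day 3 read 0.30, not called.

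Of the 5 measured subunits of the eIF2B exchange factor, Eif2b3 and Eif2b4 rose in all 4 comparisons, and Eif2b2 did so at the edge of the threshold. Eif2b4, the delta subunit, read 11.68, 11.70 and 11.76 in wild type day 3 controls against 12.60, 12.41 and 12.39, and 11.57, 11.60 and 11.75 in knockout day 3 controls against 12.23, 12.33 and 12.51. The groups were apart, with rises of 0.75 ± 0.11 (adjusted p = 1.79e-05) and 0.72 ± 0.11 (adjusted p = 4.24e-05), and at day 14 the rises of Eif2b4 were 0.51 ± 0.11 and 0.62 ± 0.11. Eif2b3, the gamma subunit, rose by 0.55 ± 0.11, 0.41 ± 0.11, 0.67 ± 0.11 and 0.62 ± 0.11 in wild type and knockout day 3 and wild type and knockout day 14. Eif2b2, the beta subunit, rose by 0.39 ± 0.12, 0.60 ± 0.12, 0.30 ± 0.12 and 0.57 ± 0.12 in the same order. The wild type day 14 value of Eif2b2 had an adjusted p of 0.0479, a call that ended in 18 of 24 fits without 1 array (0.23 to 0.31), with no detection filter, in the fit of the day's samples alone and with the replicate number as a block (adjusted p = 0.0614). Eif2b5, the catalytic subunit, was called only in knockout day 3 (0.60 ± 0.14, and 0.21 and not called without the 2 arrays), and Eif2b1 only in wild type day 14, where it was lower (-0.57 ± 0.17).

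The kinases that phosphorylate eIF2 did not move as a set. Eif2ak2, the interferon-induced kinase PKR, was called higher in wild type day 3 (0.54 ± 0.16) and wild type day 14 (0.49 ± 0.16). Eif2ak3, the kinase PERK of the endoplasmic reticulum, read 7.42, 7.04 and 6.30 in knockout day 3 controls against 6.40, 5.83 and 6.29, and 6.23, 6.41 and 6.20 against 5.56, 6.14 and 5.10 at day 14. The first pair of groups overlapped and the second did not, and both were called lower (-0.75 ± 0.24, adjusted p = 0.02, and -0.68 ± 0.24, adjusted p = 0.0338). The day 3 call became -0.52 and not called without the 2 arrays and also ended without the first or second control (-0.50 and -0.69) or the second denervated sample (-0.58). The day 14 call ended without any of the controls or without the first or the third denervated sample (-0.43 to -0.72, adjusted p 0.0554 to 0.211). Eif2ak1 was called in none, with changes from -0.18 to -0.01.

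Of 12 measured eIF3 subunits, 4, 3, 5 and 7 were called higher and 0, 1, 1 and 0 lower in wild type and knockout day 3 and wild type and knockout day 14. Of all genes tested, 20%, 20.2%, 22.9% and 19% were called higher and 17.5%, 15.6%, 18.6% and 17.7% lower. Eif3d, a subunit that can itself bind the cap of some mRNAs, read 11.99, 11.91 and 12 in wild type day 3 controls against 12.88, 12.68 and 12.76, and 11.82, 11.81 and 11.78 in day 14 controls against 12.50, 12.87 and 12.88. The groups were apart, and the rises were 0.80 ± 0.12 (adjusted p = 1.4e-05) and 0.95 ± 0.12 (adjusted p = 1.51e-06) in wild type and 0.44 ± 0.12 and 0.65 ± 0.12 in knockout at days 3 and 14. Eif3l, a peripheral subunit, rose by 0.56 ± 0.12, 0.84 ± 0.12, 0.85 ± 0.12 and 0.52 ± 0.12 in the same order as the counts. Under median centring its knockout day 14 value was 0.42 and not called. By the probe used, at day 14 and not at day 3, Eif3k, the partner of Eif3l, was called higher by 0.84 ± 0.22 in wild type and 0.86 ± 0.22 in knockout. The same held for Eif3i (0.43 ± 0.09 and 0.36 ± 0.09) and Eif3f (0.37 ± 0.11 and 0.30 ± 0.11). The difference between the days was not called for any of these 3. Another Eif3k probe, dimmer and detected on 16 arrays, was called higher in knockout day 3 (0.97) and wild type day 14 (0.65). In knockout day 14 it changed by -0.28. The 2 dimmer Eif3i probes detected on all 24 arrays were called higher in knockout day 14 (0.53 and 0.57). In wild type day 14 these gave 0.06 and 0.16, not called. Under median centring Eif3k was called higher in all 4. Eif3i (0.28 and 0.23) and Eif3f (0.09 and 0.09) were then not called at day 14. Eif3h was the member of the complex called lower, in knockout day 3 (-0.46 ± 0.17, -0.11 and not called without the 2 arrays, 0.20 under median centring) and wild type day 14 (-0.70 ± 0.17). By the probes used, Eif3a, Eif3c, Eif3e and Eif3m were called in none of the 4, with changes from -0.03 to 0.73. A dimmer Eif3c probe, also detected on all 24 arrays, was called higher in all 4 (0.61 ± 0.14, 0.77 ± 0.14, 1.47 ± 0.14 and 0.70 ± 0.14), so that the result for Eif3c depends on the probe.

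Eif6, which binds the large ribosomal subunit and keeps it from joining the small one, rose in all 4 comparisons. It read 11.20, 11.08 and 11.27 in wild type day 3 controls against 12.61, 12.50 and 12.57, and 10.97, 11.14 and 11.01 at day 14 against 11.78, 11.85 and 11.88. In knockout muscle it read 11.14, 11.18 and 10.99 against 11.95, 11.50 and 11.61 at day 3, and 10.67, 10.89 and 10.84 against 11.76, 12.16 and 11.90 at day 14. Every denervated sample lay above every control sample. The rises were 1.38 ± 0.13 (2.60-fold, adjusted p = 2.28e-08), 0.58 ± 0.13 (adjusted p = 0.00101), 0.80 ± 0.13 (adjusted p = 2.92e-05) and 1.14 ± 0.13 (adjusted p = 3.66e-07) in wild type and knockout day 3 and wild type and knockout day 14. Eif5b, the subunit-joining factor, was called higher in wild type day 3 (0.41 ± 0.14) and knockout day 14 (0.50 ± 0.14), its second probe being called lower in the latter. Eif5, which triggers GTP hydrolysis on eIF2, was called in none by the probe used, while a dimmer probe was called lower in knockout day 3 (-0.76 ± 0.18) and wild type day 14 (-0.81 ± 0.18).

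The elongation factor eEF1A, which delivers aminoacyl-tRNA to the ribosome, showed opposite changes of its 2 genes. Eef1a1 read 13.74, 13.56 and 13.56 in wild type day 3 controls against 14.13, 14.31 and 14.43, and 13.77, 13.53 and 13.68 in day 14 controls against 15.66, 15.41 and 15.32. In knockout muscle it read 13.52, 13.62 and 13.87 against 14.57, 14.55 and 14.30 at day 3, and 13.37, 13.31 and 13.68 against 14.74, 14.36 and 14.56 at day 14. All denervated samples lay above all controls, and the wild type day 14 samples were the highest. The rises were 0.67 ± 0.14 (adjusted p = 0.000785), 0.81 ± 0.14 (adjusted p = 0.000154), 1.80 ± 0.14 (3.49-fold, adjusted p = 2.23e-09) and 1.10 ± 0.14 (adjusted p = 3.43e-06). A second probe of Eef1a1 gave 0.82, 0.75, 1.98 and 1.27.

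Eef1a2, the adult muscle form, read 15.08, 15 and 15.17 in wild type day 3 controls against 14.36, 14.11 and 14.12, and 15.08, 15.01 and 15.12 against 14.87, 14.92 and 14.85 at day 14. In knockout muscle it read 14.78, 14.81 and 15.24 against 14.21, 14.72 and 14.69 at day 3, and 15.29, 15.33 and 14.99 against 14.88, 14.62 and 14.91 at day 14. The denervated samples lay below the controls in each comparison. The change was -0.89 ± 0.15 (adjusted p = 7.06e-05) in wild type day 3 and -0.40 ± 0.15 (adjusted p = 0.0408) in knockout day 3. It was -0.19 ± 0.15 (adjusted p = 0.345) in wild type day 14 and -0.40 ± 0.15 (adjusted p = 0.0398) in knockout day 14. The knockout day 3 call ended without the third control (-0.25) or the first denervated sample (-0.24), and stood at -0.73 (adjusted p = 0.011) without the 2 arrays that stood apart. The knockout day 14 call ended without the first or second control or the first or second denervated sample (-0.31 to -0.44). A dimmer Eef1a2 probe gave -1.43, -1.45, -2.25 and -0.74, of which the first 3 were called, so that its day 14 wild type value differs from that of the brighter probe.

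Eef1g, the gamma subunit of the complex that recharges eEF1A with GTP, rose by 0.41 ± 0.11, 0.58 ± 0.11, 0.68 ± 0.11 and 0.51 ± 0.11, all called. Under median centring its knockout day 14 value was 0.29 and not called. Eef1b2 was called once, higher in knockout day 14 (0.48 ± 0.11), and Eef1d in none by the probe used (-0.18 to 0.05). Another Eef1d probe, dimmer and also detected on all 24 arrays, was called lower in knockout day 3 (-0.67) and wild type day 14 (-0.55). Eef2, the factor that moves the ribosome along the mRNA, read 12.94, 12.94 and 13.17 in knockout day 3 controls against 13.66, 14.06 and 14.10, and 12.85, 12.89 and 13.10 in wild type day 3 controls against 13.68, 13.28 and 13.47. The groups were apart, with rises of 0.93 ± 0.15 (adjusted p = 4.71e-05; 0.65 without the 2 arrays) and 0.53 ± 0.15 (adjusted p = 0.00746). At day 14 Eef2 was called higher in wild type (0.43 ± 0.15, adjusted p = 0.0239) and changed by 0.02 ± 0.15 in knockout. The wild type day 14 call ended without the third control (0.38) or the third denervated sample (0.33), and a dimmer probe was called lower there (-1.25).

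Eef1e1, which despite its name belongs to the complex of aminoacyl-tRNA synthetases, read 10.10, 9.98 and 9.64 in wild type day 3 controls against 10.26, 10.47 and 10.53, and 9.83, 9.74 and 9.58 in day 14 controls against 9.40, 8.92 and 9.17. It was called higher at day 3 (0.51 ± 0.19, adjusted p = 0.0409) and lower at day 14 (-0.55 ± 0.19, adjusted p = 0.026). The day 3 call ended without the second or the third control or denervated sample (0.38 to 0.55), and the day 14 call without the first or second control or the second or the third denervated sample (-0.43 to -0.55). The groups were apart at both days. Under median centring the day 14 value of Eef1e1 was -0.41 and not called, and the day 3 value was 0.80 and called. Eefsec, which delivers selenocysteine, was called lower in knockout day 14 (-0.62 ± 0.17).

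Eef2k, the kinase that phosphorylates eEF2 and slows elongation, read 10.06, 10.06 and 10.01 in wild type day 3 controls against 8.83, 8.53 and 8.44, and 10.24, 9.80 and 10.28 against 8.49, 8.90 and 8.87 at day 14. In knockout muscle it read 10.18, 9.96 and 10.09 against 9.07, 9.44 and 9.60 at day 3, and 10.24, 10.37 and 10.42 against 9.45, 9.58 and 9.43 at day 14. All denervated samples lay below all controls. The falls by this probe were -1.44 ± 0.16 (adjusted p = 2.36e-07), -0.71 ± 0.16 (adjusted p = 0.00116), -1.36 ± 0.16 (adjusted p = 4.65e-07) and -0.86 ± 0.16 (adjusted p = 0.000172). A second probe of nearly the same brightness, 9.51 against 9.60 on average, gave 1.13, 0.19, 0.12 and 0.83, called higher in wild type day 3 and knockout day 14. The direction of Eef2k therefore depends on the probe, and the mean of its probes changed by -0.00, -0.20, -0.25 and 0.19, none called.

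Probes of 1 gene were called in opposite directions for 6 members in all. Beside Eef2k these were Eef2 in wild type day 14, Eif1ad in wild type day 14, Eif4g2 in wild type day 3 and Eif5b in knockout day 14, described above, and Eif4a2 in wild type day 14, whose 2 dimmer probes were called in opposite directions. Of the 57 members, 24 had 1 kept probe and 33 had more, 96 probes in all. Probe sequences were not used here, so which transcript each probe reads was not tested.

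**Figure D4:**
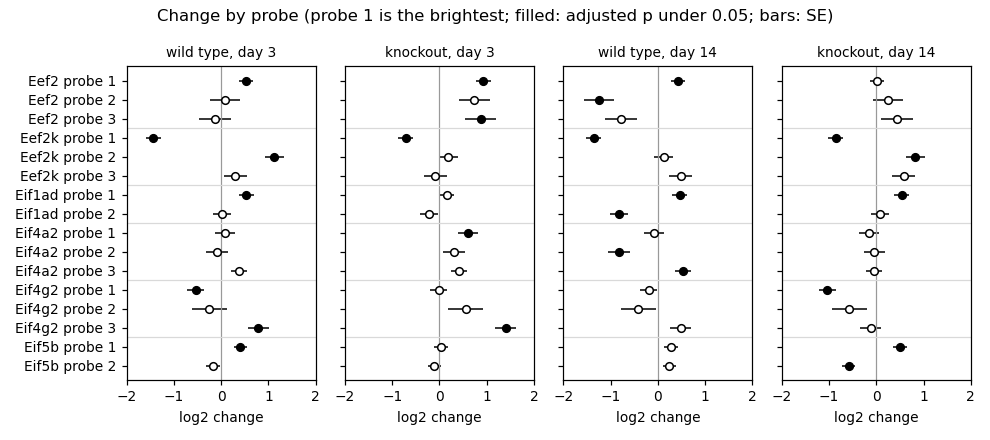
Log2 change by probe for the 6 members with probes called in opposite directions, one panel per genotype and day, with probe 1 the brightest, filled points where the adjusted p was under 0.05 and bars of 1 SE. Eef2k probe 1 lies below 0 in every panel while probe 2 lies above 0 in every panel.

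Of the methyltransferases of the elongation factors, 2 of 3 were called, both in wild type day 14. Of all genes tested, 41.5% were called there, 22.9% higher and 18.6% lower. Eef1aknmt, which methylates eEF1A, was called higher in wild type day 14 (0.50 ± 0.18, adjusted p = 0.0276), a call that ended without the third control (0.35) or the third denervated sample (0.28). Eef2kmt, an eEF2 methyltransferase, was called higher there too (0.35 ± 0.14), a call that ended in 12 of 24 fits without 1 array and with the replicate block. Eef1akmt1 was called in none of the 4, with changes from -0.57 to 0.41.

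Several smaller calls rested on single arrays. In wild type day 3 the call of Eif4e3 ended without the first control or the second or the third denervated sample, and that of Eif5b without the third control or the first or the third denervated sample. That of Eif4g3 ended without the first control or the first denervated sample, that of Eif2ak2 without the first control, that of Eif1ad without the third denervated sample and that of Eif2b2 without the second. In knockout day 3 Eif3h was not called without the second or the third sample of either group, nor Eif4g3 without the second denervated sample. In wild type day 14 Eif4e3 was not called without the first or the third control or the second denervated sample, and Eif2ak2 without the first or second control or the first denervated sample. There Eif1ad was not called without the second or the third sample of either group, nor Eif1b without those or the first denervated sample. In knockout day 14 Eif3f was not called without any of the controls or the first or the third denervated sample, nor Eif1ad without the second denervated sample.

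Genes that act beside the factors were listed by role. Their counts, here and in the next paragraph, stand beside the shares of all genes tested in the same 4 comparisons. These were 20%, 20.2%, 22.9% and 19% called higher and 17.5%, 15.6%, 18.6% and 17.7% lower. Of 7 measured termination and recycling genes, 3, 2, 4 and 4 were called higher and 0 lower in wild type and knockout day 3 and wild type and knockout day 14. Etf1, the release factor that reads stop codons, rose by 0.80 ± 0.12, 0.93 ± 0.12, 0.76 ± 0.12 and 0.55 ± 0.12. Its GTPase partner Gspt1 rose by 1.00 ± 0.13, 0.77 ± 0.13, 1.08 ± 0.13 and 0.63 ± 0.13. Among 12 cap and poly(A) regulators, 5, 5, 4 and 2 were called higher and 3, 0, 4 and 2 lower. The kinase Mknk2, which phosphorylates eIF4E, rose by 2.59 ± 0.19, 2.73 ± 0.19, 2.43 ± 0.19 and 2.19 ± 0.19. Its paralogue Mknk1 was called lower in 3 comparisons (-0.43 to -0.54) and read -0.20 ± 0.14 in knockout day 3. Eif4ebp1, left out of the members by their rule, rose by 1.64 ± 0.15, 1.14 ± 0.15, 0.65 ± 0.15 and 1.40 ± 0.15, so that it and Eif4ebp2 were called in opposite directions in 3 comparisons. Pabpc4, a poly(A)-binding protein, was called lower in wild type at day 3 (-0.61 ± 0.23) and day 14 (-1.91 ± 0.23).

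Of 8 measured genes around eIF2 phosphorylation, 2, 2, 3 and 1 were called higher and 2, 2, 4 and 3 lower in the same order. Ppp1r15b, a subunit of the phosphatase that restores eIF2, rose by 1.38 ± 0.25, 1.37 ± 0.25, 1.24 ± 0.25 and 1.04 ± 0.25. Its stress-induced paralogue Ppp1r15a was called higher in the first 3 (1.37 ± 0.18, 1.07 ± 0.18 and 1.11 ± 0.18). Chac1, a target of the factor ATF4, fell by -3.09 ± 0.42, -1.27 ± 0.42, -2.16 ± 0.42 and -1.98 ± 0.42. Ddit3, the stress factor CHOP, was called lower in the first 3 (-1.22 ± 0.22, -1.92 ± 0.22 and -0.71 ± 0.22). Of 7 enzymes that make hypusine on eIF5A or diphthamide on eEF2, 1, 1, 0 and 1 were called higher and 1, 2, 2 and 0 lower. Dph5, of the diphthamide route, was called higher at day 3 in both genotypes (0.98 ± 0.24 and 0.91 ± 0.24), and Dohh, which completes hypusine, lower (-0.49 ± 0.14 and -0.57 ± 0.14). The mitochondrial translation factors, which serve the ribosomes of that organelle, were not called higher in any comparison, and 7, 4, 5 and 4 of 10 were called lower. Mtrf1l, a mitochondrial release factor, fell in all 4 (-0.48 ± 0.16, -0.43 ± 0.16, -0.61 ± 0.16 and -0.53 ± 0.16).

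The study's design also asks whether the response needs MuRF1. In muscle without surgery, over both days, 1 of 57 members was called between genotypes, where 3.30% of all genes were, 1.57% higher and 1.72% lower in knockout. This was Eif3b, a core eIF3 subunit, which read 9.02, 8.99 and 8.98 in wild type day 3 controls against 8.78, 8.74 and 9.12 in knockout, and 9.93, 9.62 and 9.92 against 9.20, 9.02 and 9.08 at day 14. The day 14 groups were apart and the day 3 groups overlapped, and the fit over both days gave -0.42 ± 0.09 (knockout minus wild type, adjusted p = 0.0137). It was -0.38 and -0.32 and not called under median centring and as the mean of its probes.

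In denervated muscle at day 3, 7 members were called between genotypes (12.3%), 3 higher and 4 lower in knockout, and of all genes 7.17%, 3.78% higher and 3.38% lower. Eif6 was lower in knockout by -0.87 ± 0.13 (adjusted p = 0.00039), Eif4a1 by -0.74 ± 0.14 (adjusted p = 0.00357), Eif4e2 by -0.53 ± 0.13 (adjusted p = 0.0196) and Eif2b3 by -0.40 ± 0.11 (adjusted p = 0.0299). Higher in knockout were Eef2k (0.77 ± 0.16, adjusted p = 0.00676), Eif4ebp2 (0.64 ± 0.18, adjusted p = 0.0351) and Eef1aknmt (0.63 ± 0.18, adjusted p = 0.0371). Eef1aknmt read 8.14, 8.13 and 8.06 in wild type and 8.49, 8.75 and 8.97 in knockout. Without the 2 arrays that stood apart, 1 knockout sample was left to set against 3 of wild type, and none of the 7 was called. Eif6 was then -0.61 (adjusted p = 0.172), Eif4a1 -0.54 (adjusted p = 0.319), Eif4e2 -0.31 (adjusted p = 0.711) and Eif2b3 -0.23 (adjusted p = 0.744). Eef2k was 0.47 (adjusted p = 0.592), Eif4ebp2 0.26 (adjusted p = 0.867) and Eef1aknmt 0.38 (adjusted p = 0.759). With the number of detected probes as a covariate none of the 7 was called either.

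In denervated muscle at day 14, 2 members were called (3.51%), 1 higher and 1 lower in knockout, and of all genes 6.92%, 2.70% higher and 4.21% lower. Eef1a1 was lower in knockout by -0.91 ± 0.14 (adjusted p = 0.000507), with 14.36 to 14.74 in knockout against 15.32 to 15.66 in wild type, groups that did not overlap. Eef2k was higher in knockout by 0.74 ± 0.16 (adjusted p = 0.0067), with 9.43 to 9.58 against 8.49 to 8.90, by the probe whose direction its second probe does not share.

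The difference of the denervation response between genotypes was tested as an interaction. At day 3, 1 member was called (1.75%), against 1.08% of all genes, 0.645% upward and 0.433% downward: Eif6 rose less in knockout, by -0.79 ± 0.18 (adjusted p = 0.0413). The call was lost in 14 of 24 fits that each left out 1 array (adjusted p 0.0508 to 0.107), with the replicate number as a block (adjusted p = 0.0547), and without the 2 arrays that stood apart (-0.53, adjusted p = 0.493).

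At day 14, 5 members were called (8.77%), 3 upward and 2 downward, and of all genes 12.5%, 4.58% upward and 7.93% downward. Eif5a, the hypusine-bearing factor that frees stalled ribosomes, read 13.06, 12.77 and 12.76 in wild type controls against 11.87, 11.86 and 12.04 after denervation, and 12.11, 12.01 and 11.94 in knockout controls against 12.23, 12.47 and 12.21. Wild type samples fell and knockout samples lay above their controls, and the knockout controls lay below those of wild type. The changes were -0.94 ± 0.21 (adjusted p = 0.000995) in wild type and 0.29 ± 0.21 (adjusted p = 0.298) in knockout, and their difference was 1.23 ± 0.29 (adjusted p = 0.0111). At day 3 Eif5a read 12.63, 12.51 and 12.51 against 12.78, 13.01 and 12.89 in wild type and 12.26, 12.19 and 12.68 against 12.75, 11.55 and 12.53 in knockout, with no called change by this probe. Another Eif5a probe, dimmer and also detected on all 24 arrays, gave 0.66 and 0.21 at day 3 in wild type and knockout. At day 14 it gave -0.24 and 0.50, and just the 0.66 and the 0.50 were called. The wild type fall of Eif5a at day 14 therefore depends on the probe.

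Eif3b rose by 0.95 ± 0.13 (adjusted p = 4.14e-06) in knockout at day 14, from 9.20, 9.02 and 9.08 to 10.11, 10.02 and 10.02, and changed by 0.10 ± 0.13 in wild type, from 9.93, 9.62 and 9.92 to 9.81, 9.90 and 10.05. The denervated samples of both genotypes lay between 9.81 and 10.11, while the knockout controls lay below the wild type controls. The interaction was 0.85 ± 0.18 (adjusted p = 0.00484), and 0.60 and not called under median centring. Eif3j1, a subunit loosely bound to eIF3, read 10.72, 10.33 and 10.66 against 11.27, 11.58 and 11.29 in knockout (0.81 ± 0.18, adjusted p = 0.00099) and 10.91, 11.19 and 10.83 against 10.97, 10.76 and 10.98 in wild type (-0.07 ± 0.18). Its interaction was 0.88 ± 0.25 (adjusted p = 0.0255), a call that ended without replicate 2 of any of the 4 groups (0.76 to 0.81, adjusted p 0.064 to 0.0766). Eif3j1 was also called higher in wild type day 3 (0.53 ± 0.18), until the second or the third control or the first denervated sample was left out (0.43 to 0.52), and a second probe did not share its day 14 rise (-0.10).

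Eif4g2 read 12.75, 12.77 and 12.81 in knockout day 14 controls against 11.96, 11.56 and 11.70 after denervation, and 12.60, 12.29 and 12.46 in wild type against 12.15, 12.41 and 12.24. The knockout groups were apart and the wild type groups overlapped, with changes of -1.04 ± 0.17 (adjusted p = 7.01e-05) and -0.19 ± 0.17. The interaction was -0.86 ± 0.24 (adjusted p = 0.0274), and it ended without replicate 2 of any of the 4 groups or replicate 3 of either knockout group (-0.77 to -0.86, adjusted p 0.0532 to 0.081). By its 2 dimmer probes Eif4g2 changed by -0.57 and -0.12 in knockout and by -0.42 and 0.48 in wild type, none called. For Eef1a1 the interaction was -0.70 ± 0.20 (adjusted p = 0.028), the rise being larger in wild type, a call that ended without any of 5 samples (-0.59 to -0.70, adjusted p 0.051 to 0.0867). These were wild type control 2, wild type denervated 1, knockout control 3 and knockout denervated 2 and 3. By the probes used, the calls of Eif5a and Eif3b held in all 24 fits that left out 1 array.

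**Figure D5:**
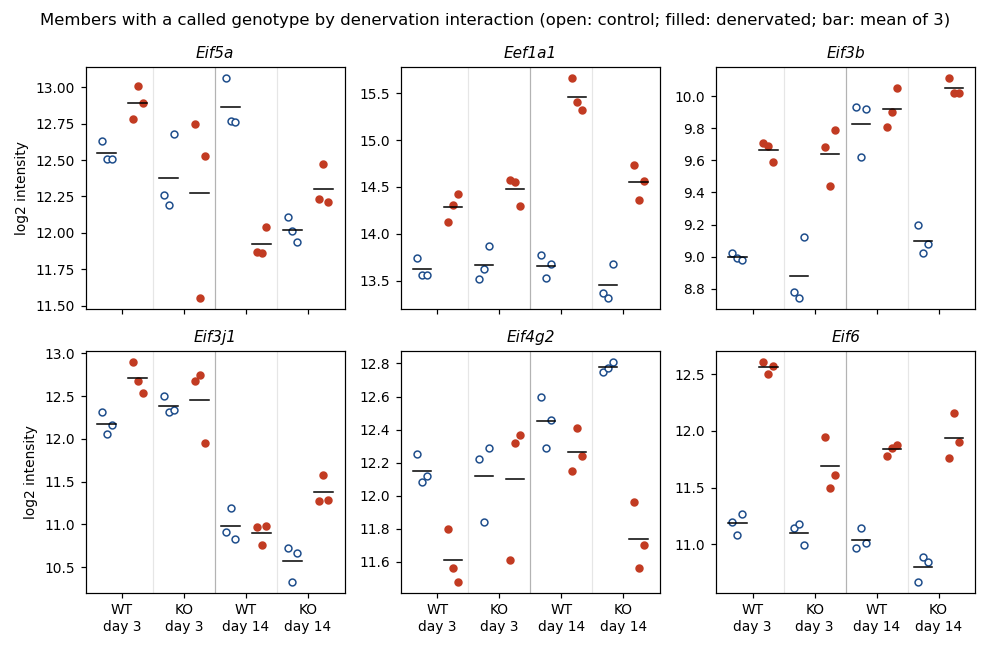
Log2 intensity in each of the 24 samples of the 6 members with a called genotype by denervation interaction (open circles, control; filled circles, denervated; bar, mean of 3). At day 14 in the Eif5a panel the wild type denervated samples lie at 11.86 to 12.04, below their controls, and the knockout denervated samples at 12.21 to 12.47, above theirs.

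The change of the denervation response between day 3 and day 14 was called for 10 members in wild type (17.5%), 3 upward and 7 downward, and for 13.7% of all genes, 7.46% upward and 6.20% downward. Eef1a1 gained 1.13 ± 0.20 (adjusted p = 0.000983), Eif2d 1.03 ± 0.22 (adjusted p = 0.00327) and Eef1a2 0.70 ± 0.21 (adjusted p = 0.0314). Eif5a changed by -1.28 ± 0.29 (adjusted p = 0.00613) and Eef1e1 -1.07 ± 0.27 (adjusted p = 0.0124). The other 5 downward were Eif2s2, Eif4e2, Eif6, Eif3b and Eif1b, between -0.53 and -0.71. The calls of Eef1a1, Eif2d, Eif5a and Eef1e1 held with any 1 array left out, and that of Eef1a2 ended in 9 of 24 such fits and turned to -0.06 as the mean of its probes.

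In knockout 15 members were called (26.3%), 5 upward and 10 downward, and of all genes 20.6%, 9.12% upward and 11.5% downward. Among the largest were Eif2s3x (-1.05 ± 0.30, adjusted p = 0.0186), Eif2s2 (-1.03 ± 0.22, adjusted p = 0.00328), and Eif4g2 (-1.02 ± 0.24, adjusted p = 0.00746). The next were Eif1ax (-1.0 ± 0.26, adjusted p = 0.0105), Eef1akmt1 (0.98 ± 0.32, adjusted p = 0.035) and Eef2 (-0.91 ± 0.21, adjusted p = 0.00571). Eef1akmt1, an eEF1A lysine methyltransferase, read 10.91, 11.13 and 10.48 against 10.85, 9.99 and 9.97 at day 3, and 10.36, 9.87 and 10.10 against 10.35, 10.70 and 10.50 at day 14, and the groups overlapped at both days. Without the 2 arrays that stood apart, 1 denervated sample was left at day 3. There Eif2s3x was -0.58, Eif2s2 -0.77, Eif4g2 -0.53, Eif1ax -0.71, Eef1akmt1 0.40 and Eef2 -0.63. Under median centring the members' split was 0 upward and 29 downward. Of all 11317 genes, 315 were then called upward and 4422 downward, with a median of -0.507.

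Controls also differed between days. Over both genotypes, 30 of 57 members were called between day 14 and day 3 controls (52.6%), 18 higher and 12 lower at day 14, and of all genes 41.4%, 23.5% higher and 17.9% lower. Under median centring, where the median change of all genes was 0.39, the members' split was 46 higher and 3 lower. Of all 11317 genes, 6123 were then called higher and 463 lower. Eif3j1 was 1.51 lower on the log2 scale (-1.51 ± 0.12, adjusted p = 6.04e-08), Eif3h and Eif3k -0.83 ± 0.12 and -0.83 ± 0.16 (Eif3k 0.05 as the mean of its probes), and Eif4ebp2 1.14 ± 0.13 higher (adjusted p = 3.04e-06). With no surgery in either group, the day and anything that differed between the 2 sets of samples cannot be told apart, and the day comparisons of denervated muscle above are each taken against the controls of the same day.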

How the data were processed

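Per the file headers, the deposited non-normalized table holds a linear intensity and a detection p-value for each of 46632 probes on 24 arrays; the submitters' processing notes name BeadStudio 3.2.3. A second deposited table of processed intensity values ranks the probes of each array as the first does and was used as an alternative. No deposited column of values was left unused.

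Intensities were background-corrected with the detection p-values, offset by 16, quantile normalized and log2 transformed (neqc, limma 3.58.1, R 4.3.3). Probes were kept at a detection p-value under 0.05 on at least 3 arrays, 21997 in all, of which 16314 were named by 1 gene symbol in the platform annotation updated through RefSeq; on the array 29976 probes had 1 symbol, 10 several and 16646 none. The brightest kept probe stood for each of 11317 genes. One limma fit over 8 groups (16 residual degrees of freedom) gave all contrasts, with Benjamini-Hochberg adjustment over all genes at 0.05. The fit was tested on simulated data. Precision is limited by having 3 arrays in a group.

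The alternatives were the authors' processed values, median centring, the detection filter, the mean of kept probes, an offset of 50, separate fits by day or genotype, a replicate block, the detected-probe number as covariate, array weights and leaving out arrays. Replicate numbers were not treated as pairs, since same-numbered deviations correlated between -0.127 and 0.388. Values of every sample are given for the members with the largest called changes in each denervation contrast, those called in a genotype contrast or interaction, and Eef1a1, Eef1a2, Eif2s3x, Eif5a and Eif4e. The members, lists and tests were chosen with earlier results of these data known.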

Additional observations from a re-analysis of the deposited data

Results flagged for a closer look

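The results here were picked out because the denervation response of a member differed between genotypes or between days by a test of the difference itself (limma's interaction term, adjusted p under 0.05 over all genes, n = 3 samples per group). No cause was tested.

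Between genotypes (knockout minus wild type response), Eif6 differed at day 3 by -0.79. At day 14 Eif5a differed by 1.23, Eif3j1 by 0.88 and Eif3b by 0.85, and Eif4g2 by -0.86 and Eef1a1 by -0.70.

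Between days (day 14 minus day 3 response) in wild type, Eef1a1 differed by 1.13, Eif2d by 1.03 and Eef1a2 by 0.70. Downward in wild type were Eif5a by -1.28, Eef1e1 by -1.07, Eif2s2 by -0.71, Eif4e2 by -0.62, Eif6 by -0.58, Eif3b by -0.57 and Eif1b, a paralogue of the start codon factor eIF1, by -0.53.

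Between days in knockout, Eef1akmt1 differed by 0.98, Eif2d by 0.82, Eif3j1 by 0.74, Eif4a1 by 0.71 and Eif6 by 0.56. Downward in knockout were Eif2s3x by -1.05, Eif2s2 by -1.03, Eif4g2 by -1.02, Eif1ax by -1.0 and Eef2 by -0.91. Smaller were Eif4ebp2 by -0.83, Eefsec by -0.76, Eif4h, a cofactor of the helicase eIF4A, by -0.72, Eif2b5 by -0.61 and Eif2a by -0.41. Leaving out 1 array ended the knockout call of Eif2a in 21 of 24 fits, and those of Eef1akmt1, Eefsec and Eif2b5 in 8 each. That of Eif3j1 ended in 7, those of Eif4ebp2 and Eif6 in 6 each and that of Eif2s3x in 3. Of these 15 knockout results 1, Eif2d at 1.03, was called without the second and the third denervated knockout array of day 3, a fit that leaves 1 sample in that group.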

How the results depend on the processing

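The 163 single-gene calls, those of all members in the comparisons of denervation, genotype and their interactions and 4 between control days, kept direction and call in 3632 of 3912 fits that left out 1 array and in 1588 of 1788 other settings; 280 and 187 kept the direction without the call, and 13 reversed. The calls of members beyond the named ones were added after seeing the data. Reversed as the mean of kept probes were Eef1a2 in the wild type day difference (-0.06), Eef2 (-0.53) and Eif1ad (-0.19) in wild type day 14, Eef2k (0.19), Eif2d (-0.06) and Eif5b (-0.04) in knockout day 14, Eef2k between genotypes in denervated day 3 (-0.07), Eif3j1 in the knockout day difference (-0.07) and Eif3k between control days (0.05). Under median centring these were Eif1ax (0.13) and Eif3h (0.20) in knockout day 3 and Eif6 in the knockout day difference (-0.09), and with detected probes as covariate Eif4a2 in knockout day 3 (-0.06). The cause was not tested.

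Leaving out 1 array at a time, members called ranged from 21 to 30 in wild type day 3, 21 to 27 in knockout day 3, 26 to 34 in wild type day 14, 28 to 33 in knockout day 14, 2 to 20 and 2 to 3 between genotypes in denervated muscle at days 3 and 14, 1 to 3 in controls, 0 to 9 and 2 to 8 for the genotype interaction at days 3 and 14, 4 to 11 and 7 to 22 for the day difference in wild type and knockout, and 23 to 31 between control days. Counts that moved by over 1.5 times are as follows. Knockout day 3 (24) was 41 under median centring and 12 with detected probes as covariate. Genotype in denervated day 3 (7) was 3 in the fit of that day alone, 0 with the covariate, 0 without the second and the third denervated knockout array of day 3, which leaves 1 sample there, and 23 with array weights; in denervated day 14 (2) it was 1 under median centring and, in the other settings just named, 4, 8, 4 and 9. Genotype in controls (1) was 0 under median centring and as the mean of probes, 2 with detection on 12 arrays, an offset of 50 or the covariate, 3 without the 2 arrays and 6 with weights. The day 3 interaction (1) was 0 under median centring, the mean of probes, the day's fit alone, the covariate and without the 2 arrays, 2 with detection on 12 arrays or an offset of 50, and 17 with weights; the day 14 interaction (5) was 3 under median centring, 9 in the day's fit alone and with the covariate, 8 without the 2 arrays and 10 with weights. The day difference was 6 in wild type (10) under median centring, and in knockout (15) 29 under median centring, 3 in that genotype's fit alone, 6 with the covariate, 1 without the 2 arrays and 25 with weights. Control days (30) gave 49 under median centring and 2 with the covariate. The counts of all genes called under median centring in knockout day 3, the knockout day difference and between control days are given above. For the control comparisons over both days no fit of a single day or genotype was run.

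With the replicate block the members called were 28, 23, 31 and 32 in wild type and knockout day 3 and wild type and knockout day 14, and it ended the calls of Eef1a2 in knockout day 3 (-0.40, adjusted p = 0.0503), Eef2kmt (0.35, 0.0563), Eif1b (-0.28, 0.0524) and Eif2b2 (0.30, 0.0614) in wild type day 14, Eif6 in the day 3 interaction (-0.79, 0.0547) and between control days (-0.22, 0.0637) and Eif2a in the knockout day difference (-0.41, 0.0639). It added Eif4a1 in the day 3 interaction (-0.75, adjusted p = 0.0464). The samples share only a number.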
